A study of Mus musculus with 12 samples.

Results

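The microRNAs (miRNAs) miR-126, miR-221 and miR-222, which are used as markers of endothelial cells, were examined in pancreatic islets of adult male mice whose mothers ate a low-protein diet in pregnancy. They were taken as the assays whose name, without species prefix and strand ending, is miR-126, miR-221 or miR-222, with starred strands left out. The rule found 3 names, each with 1 assay, of 687 miRNA names on the panel, 528 of which had a value. The groups are 6 LP0.5 samples, from offspring of dams on the low-protein diet, and 6 Control samples, from offspring of dams on the control diet. All are islets of C57BL/6 males 2 to 3 months old, hand-picked after collagenase digestion and kept overnight in culture medium before RNA extraction. The assay was TaqMan real-time PCR on total RNA, in which a fluorescent probe reports the product in each cycle.

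MiRNAs are short RNAs that pair with messenger RNAs through bases 2 to 8, the seed, and lower their translation or stability. MiR-126 is processed from an intron of Egfl7, an endothelial gene, and is known for sustaining the response of endothelial cells to vascular growth factor by restraining its inhibitors Spred1 and Pik3r2. MiR-221 and miR-222 are made from neighbouring hairpins and are known, from human endothelial and tumour cells, for restraining the receptor Kit and the cell cycle inhibitor Cdkn1b (p27). Islets are densely supplied with capillaries, so endothelial cells are part of an isolated islet, although miR-221 and miR-222 are also made by many other cell types.

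The mature strands are shown because they define what each assay is about, with the seed in capitals, as RefSeq gives them on mouse GRCm38.p6. The assays carry human names, and the mouse 3p strand was taken for each from general knowledge of these miRNAs, since the panel names no strand.
mmu-miR-126a-3p: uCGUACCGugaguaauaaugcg
mmu-miR-221-3p: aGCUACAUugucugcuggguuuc
mmu-miR-222-3p: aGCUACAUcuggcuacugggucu
MiR-221 and miR-222 begin with the same 8 bases and therefore share their whole seed, while over the full length 11 of 23 positions are identical when the strands are laid side by side without gaps. The miR-126 seed matches theirs at 3 of 7 positions. Among 1738 mature mouse strands in the RefSeq table, the miR-126 seed occurs in 1 and the seed of miR-221 and miR-222 in 3, the other being miR-1928.

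The hairpins show where each mature strand, in capitals, lies in its precursor. Mir126a is at chr2:26591357-26591429 on the plus strand, within the gene Egfl7. Mir221 is at chrX:19146294-19146388 and Mir222 at chrX:19146893-19146971, both on the minus strand, with 504 bases between them and no other gene of the RefSeq gene table spanning either.
Mir126a: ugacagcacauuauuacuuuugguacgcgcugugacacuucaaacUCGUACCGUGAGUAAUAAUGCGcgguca
Mir221: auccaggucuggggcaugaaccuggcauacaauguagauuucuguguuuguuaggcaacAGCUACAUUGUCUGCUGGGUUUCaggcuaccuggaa
Mir222: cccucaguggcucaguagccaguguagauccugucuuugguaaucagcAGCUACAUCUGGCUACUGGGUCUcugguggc
In all 3 precursors the assayed strand lies in the second arm, the 3p side.

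The data for each assay are 1 linear ratio in the authors' deposited table, headed as low-protein against control, which makes ratios over 1 stand for more of a miRNA in LP0.5 islets. Nothing but that heading gives the direction. As no replicates or errors come with a ratio, the values that follow have neither p-values nor a check between animals. Per-sample cycle values of the second deposited table could not be tied to the labelled samples and were not analysed here, so the level of each miRNA, and with it the endothelial label, was not tested. In whole islets a ratio also cannot tell fewer cells of a type from less RNA per cell.

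None of the 3 miRNAs was listed at 1.5-fold or more from 1. MiR-126 had a ratio of 0.975 in the authors' deposited table, which is -0.04 on the log2 scale. In the authors' deposited table miR-221 stood at 1.28, or 0.36 on the log2 scale. For miR-222 the ratio in the authors' deposited table was 0.880, or -0.18 on the log2 scale. The order from high to low was thus miR-221, miR-126 and miR-222, with 1 of the 3 above 1 and 2 below.

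The panel has 2 sets of assays, A and B, told apart by spot position, and all 3 assays are in set A. There, 304 of 377 miRNA spots had a ratio, and 28.9% of them were at least 1.5-fold from 1 (13.2% above, 15.8% below), so that 0 of 3 members past that limit is a count too small to set apart from this share. The A set had a median ratio of 0.976, and its 25th and 75th percentiles were 0.796 and 1.19. MiR-126 lay at the middle of the set, with 151 miRNA spots lower and 152 higher. MiR-222 was inside the middle range, with 113 spots lower and 190 higher. MiR-221 was above the 75th percentile, with 252 spots lower and 51 higher.

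**Figure D1:**
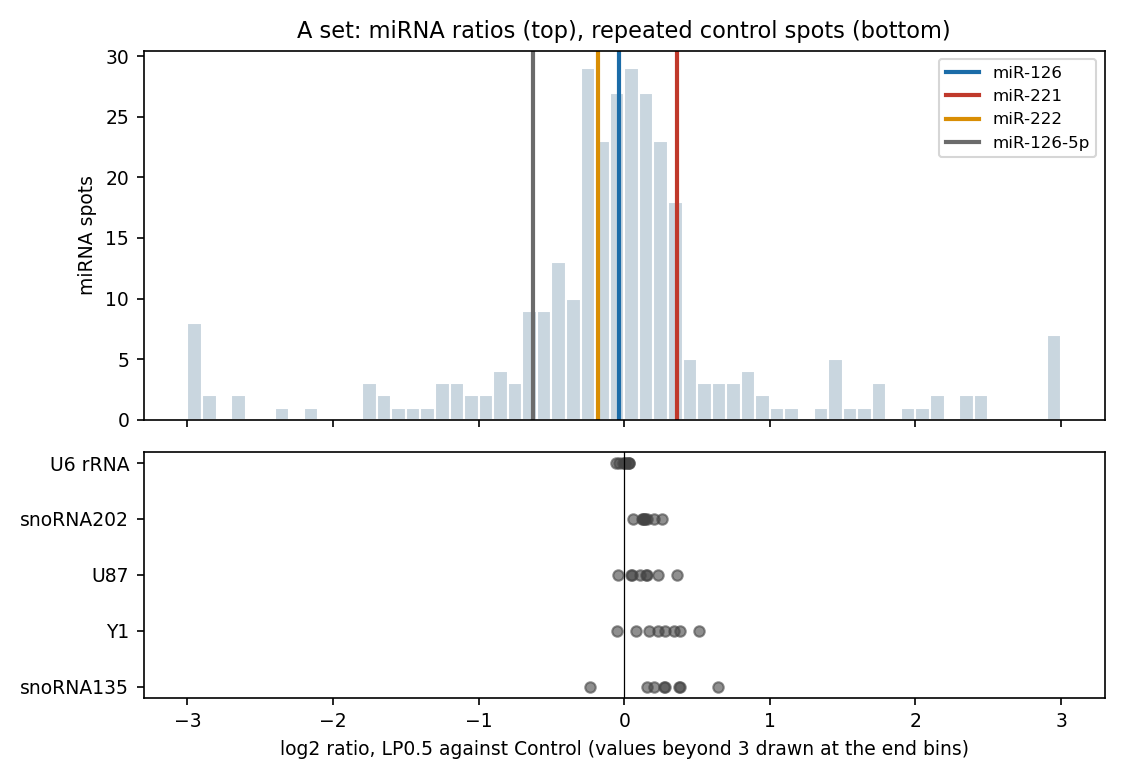
The top panel is a histogram of the log2 ratio, LP0.5 against Control, over 304 miRNA spots of the A set, with lines at miR-126, miR-221, miR-222 and the other strand miR-126-5p; the bottom panel has 1 point for each of the 8 spots of each small RNA control. MiR-126 and miR-222 sit in the central peak, miR-221 at its upper shoulder (0.36) and miR-126-5p in the lower flank (-0.63).

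Repeated spots of the small RNA controls give the only measure of technical spread in these ratios. In the A set the 8 spots of each control ranged from 0.961 to 1.02 for U6 and between 1.04 and 1.20 for snoRNA202 in the authors' deposited table. U87 spots ranged from 0.971 to 1.29, Y1 spots from 0.966 to 1.43 and snoRNA135 spots between 0.850 and 1.56 in the authors' deposited table. The SD of repeated spots, pooled over the 5 controls, was 0.15 on the log2 scale, and the 95th percentile of a spot's distance from its control's median was 1.24-fold. Relative to U6, the distances of miR-126 (1.03-fold) and miR-222 (1.14-fold) from 1 were smaller than that 1.24-fold. The distance of miR-221 (1.28-fold) was slightly larger. With the mean of the other 4 controls as reference, miR-222 (1.30-fold) was larger, and miR-126 (1.18-fold) and miR-221 (1.12-fold) were smaller. The comparison thus depends on the reference. The 1.24-fold is measured from each control's own median, with the U6 spots included. This spread covers repeats of 1 assay and leaves out the spread between animals, which was not analysed here.

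The ratios are relative to U6, since the 8 U6 spots of the A set averaged 0 on the log2 scale, and another reference for the whole set shifts them by the same factor, whereas references taken by block do not. The other 4 controls had a mean log2 ratio of 0.20 in that set. With them as the reference in place of U6, miR-126 was at 0.850, miR-221 at 1.12 and miR-222 at 0.768. Over 9 references, among them each control alone and the controls of the assay's own block, miR-126 ran from 0.814 to 0.999, miR-221 from 1.07 to 1.31 and miR-222 from 0.735 to 0.916. Each of the 3 stayed on 1 side of 1 and nearer than 1.5-fold to it under all 9. In the A set each of the other 4 controls averaged above 0 on the log2 scale. As references they could therefore only lower a ratio, which fixed the sides of miR-126 and miR-222 beforehand. With the median of all miRNA assays of the set as reference, miR-126 was at 0.999, or no difference.

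**Figure D2:**
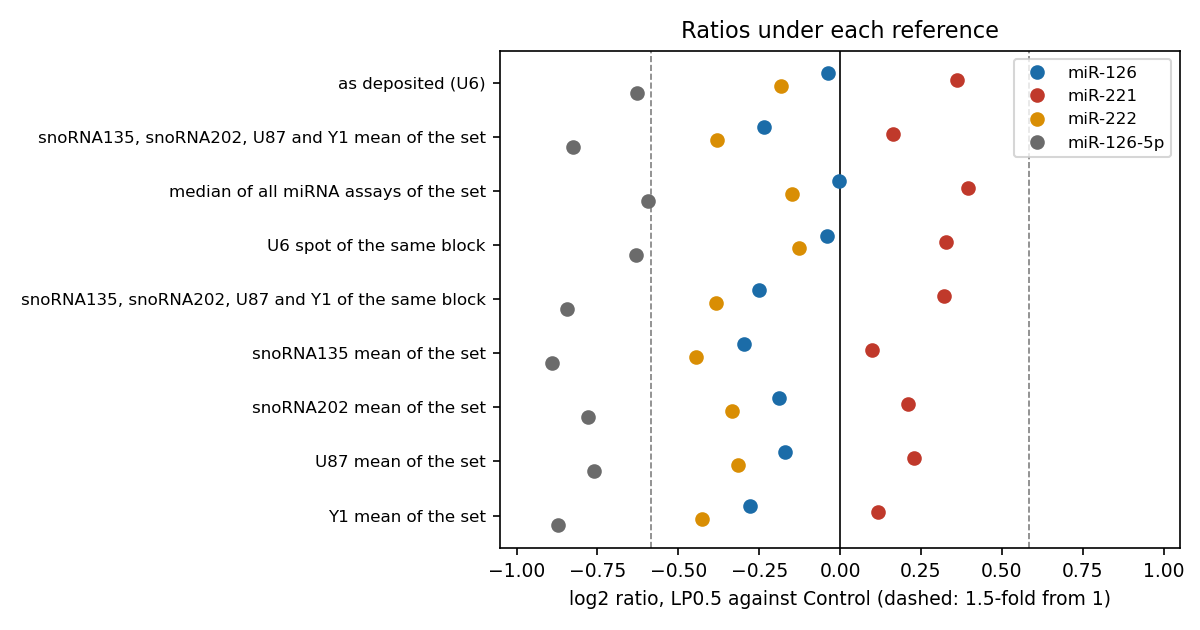
Each row is a reference and each point the log2 ratio, LP0.5 against Control, of 1 assay; dashed lines mark 1.5-fold. MiR-221 stays above 0 (0.10 to 0.39) and miR-222 below it (-0.44 to -0.13), miR-126 runs from -0.30 to 0.00, and miR-126-5p stays beyond the lower dashed line (-0.89 to -0.59).

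The 3 assays lie in different blocks of the panel, and the small RNA controls of those blocks differed. In block B1, which holds miR-221, snoRNA135 had a ratio of 0.850 in the authors' deposited table, the lowest of the 8 A-set spots of that control, while snoRNA202 there, at 1.20, was the highest of its own 8. SnoRNA135 was at 1.21 in block A2, which holds miR-126, and at 1.30 in block C1, which holds miR-222, in the authors' deposited table. Median ratios over the miRNA spots of these blocks were 1.07 in B1 (33 spots), 0.956 in A2 (36 spots) and 1.02 in C1 (42 spots). The order of the block medians of B1 and A2 is that of miR-221 and miR-126, but C1 lay between them while miR-222 was the lowest member. The part of the block in the members' ratios was not tested beyond the references above.

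MiR-221 and miR-222, which share a seed and a gene cluster, were listed on opposite sides of 1. The ratio of miR-221 was 1.46 times that of miR-222, a log2 difference of 0.54 that does not depend on the reference of the set. Relative to the U6 spot of each block it was 1.37 times, and relative to the other controls of each block 1.63 times. For scale, 61 pairs of adjacent miRNA genes on 1 strand, at most 10 kb apart and measured in the A set, differed by a median of 1.49-fold (25th to 75th percentile 1.14 to 2.80). Of the 60 pairs other than miR-221 and miR-222, 32 were farther apart and 28 closer. Among 38 pairs of different assays for 1 miRNA name, 17 were farther apart than miR-221 and miR-222 and 21 closer. The distance between this pair is near the middle of both groups of pairs, and no error of its own can be given. Both are rough scales. Many of the neighbouring pairs come from 1 genomic region, miR-770 to miR-410. The largest distance there, miR-292 to miR-294, is 24.8 on the log2 scale. Most pairs of 1 name include a B-set assay, with the pair of miR-673 farthest apart at 25.1. MiR-1928, the remaining miRNA with that seed, had a ratio of 0.258 in the authors' deposited table, from the B set.

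MiR-126-5p, the other strand of the miR-126 hairpin and also enriched in endothelial cells, was listed lower than miR-126. It is the starred assay of that hairpin, is no member by the rule, and had a ratio of 0.647 in the authors' deposited table, or -0.63 on the log2 scale. In the A set, 44 miRNA spots were lower and 259 higher. The ratio of miR-126 was 1.51 times that of miR-126-5p, and as both assays lie in block A2 this factor is the same under every reference used here. MiR-126-5p was 1.55-fold below 1 and between 0.540 and 0.663 over the 9 references. Of 15 other pairs of a main and a starred assay lying in 1 set, from 14 hairpins, 5 were farther apart and 10 closer. The median over all 16 was 1.38-fold. Among these others only the pairs of miR-335 and miR-340 are in the A set. Both were closer, at 0.37 and 0.25 on the log2 scale against 0.59 for miR-126. All pairs farther apart are in the B set, so the scale is mostly that of the other set. The strands of miR-221 and miR-222 other than those above were not analysed here.

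**Figure D3:**
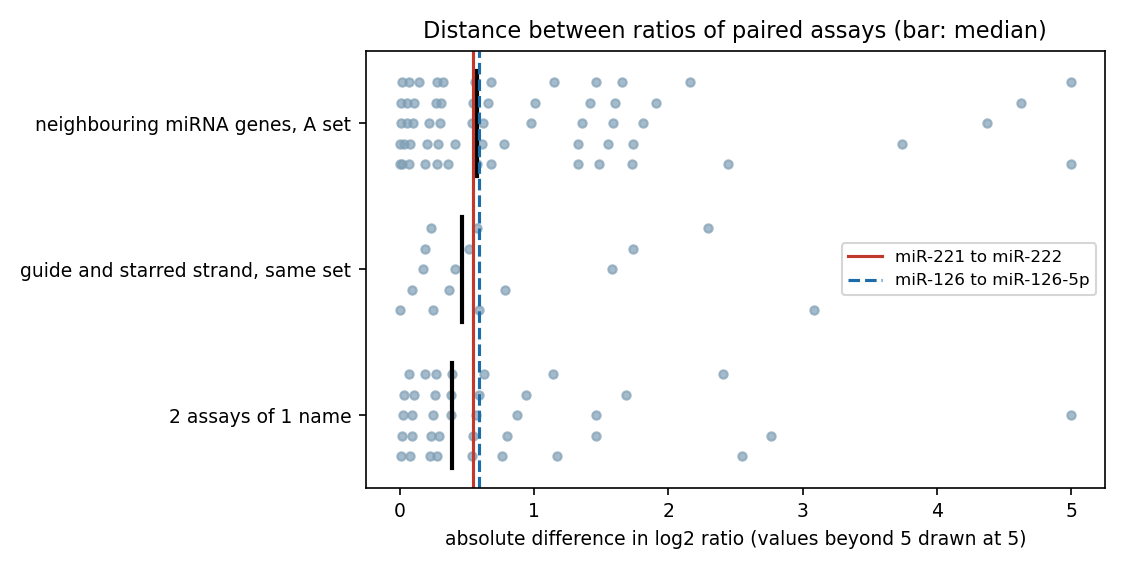
Each point is the absolute difference in log2 ratio between a pair of assays, for 61 pairs of neighbouring miRNA genes, 16 pairs of main and starred strand and 38 pairs of assays of 1 name, with a bar at the median. The lines for miR-221 to miR-222 (0.54) and miR-126 to miR-126-5p (0.59) fall within each cloud of points. Many neighbouring pairs come from 1 genomic region, most strand pairs lie in the B set, and most pairs of 1 name include a B-set assay.

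By likeness of ratio alone, the 3 A-set assays nearest to each member were named. Nearest to miR-126 were miR-467a, the acinar miR-216b and miR-384-5p, which the authors' deposited table puts between 0.969 and 0.977. Around miR-221 lay miR-296, miR-181a and miR-500, each at 1.28 in the authors' deposited table. Those around miR-222 were miR-125a-5p, a starred strand of miR-125b-1 and miR-134, which the authors' deposited table puts between 0.877 and 0.885. The likeness is that of 1 ratio each and many assays lie as close together, so it describes position in the distribution only.

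Other miRNAs known from endothelial cells or vessel growth were mostly listed less than 1.5-fold from 1. Of 20 on this list, 19 had a ratio, 8 above 1 and 11 below, with a median ratio of 0.931 against 1.01 over all 528 miRNA names. At least 1.5-fold above 1 was 1 of them and at least as far below were 4, beside 18.8% and 17.6% of all names. Furthest below were miR-503 at 0.329 and miR-322 at 0.414 in the authors' deposited table, a pair from 1 cluster that is known for restraining cell cycle entry. An assay named miR-424, the human counterpart of miR-322, stood on the other side of 1 at 1.23 in the authors' deposited table. MiR-92a, an inhibitor of vessel growth, had a ratio of 0.460 in the authors' deposited table, under the older name miR-92, and the last of the 4 is miR-126-5p. The 1 above is miR-10b, whose assays stood at 1.19 (A set) and 2.18 (B set) in the authors' deposited table. The first alone would not have passed. With A-set assays alone, 18 on the list had a ratio. Of those, 0 were at least 1.5-fold above 1 and 3 as far below, beside 13.2% and 15.8% of A-set miRNA spots. Nearest to 1 was miR-27b, at 0.935 in the authors' deposited table. In the authors' deposited table the hypoxia-induced miR-210 stood at 1.22 and miR-132, linked to vessel sprouting, at 0.856.

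Among markers of other cell types, mural and stromal miRNAs lay on both sides of 1. Of 5 on this list, 2 were above 1 and 3 below, 1 of them at least 1.5-fold above and 3 at least as far below, beside 18.8% and 17.6% of all names. The median ratio of 0.459 is that of miR-143, the mean of a pair of assays far apart. With assays of the A set alone the median was 1.11, with 3 above 1 and 2 below. In that list miR-199a-3p was at 0.422, miR-199a-5p at 0.403 and miR-145 at 2.66 in the authors' deposited table. MiR-143, made from the same transcript as miR-145 in smooth muscle, was listed at 0.190 and 1.11 by its pair of assays in the authors' deposited table. MiR-214, the name nearest to 1, was at 1.28 and 1.55 in the authors' deposited table.

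Of 6 blood cell miRNAs 5 had a ratio, 3 above 1 and 2 below, with a median of 1.20. At least 1.5-fold above 1 was 1 and as far below were 2, again beside 18.8% and 17.6% of all names. Past 1.5-fold in the authors' deposited table were miR-150, a lymphocyte miRNA, with 1.78, miR-451, of red cells, with 0.620, and miR-142-5p with 0.305. Nearest to 1 was miR-142-3p, from the same hairpin as miR-142-5p, at 1.20 in the authors' deposited table. The 3 acinar miRNAs had a median of 0.970, and none was 1.5-fold from 1 by name. The authors' deposited table gives miR-217 as 1.83 (A set) and 0.950 (B set), so its A-set assay alone passed that limit. Nearest to 1 was miR-216b, at 0.970 in the authors' deposited table. The 2 islet endocrine miRNAs were miR-375 at 1.17 and miR-7a at 0.918 in the authors' deposited table. The latter is from an assay named miR-7 with a fly prefix. MiR-7b, which is not on the list, was at 0.523 in the authors' deposited table.

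A further list held miRNAs that, like miR-221 and miR-222, have been reported to act on Cdkn1b. Of 4 on it 3 had a ratio, all below 1, as were 262 of all 528 names. In the authors' deposited table miR-24 was at 0.931, miR-152 at 0.696 and miR-196a, a B-set assay, at 0.0620. At least 1.5-fold above 1 were 0 and as far below was 1, beside 18.8% and 17.6% of all names. MiR-222 was on the same side of 1 as these 3 miRNAs and miR-221 on the other. These lists were not tested against the members, and the part of other cell types in the members' ratios was not tested.

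**Figure D4:**
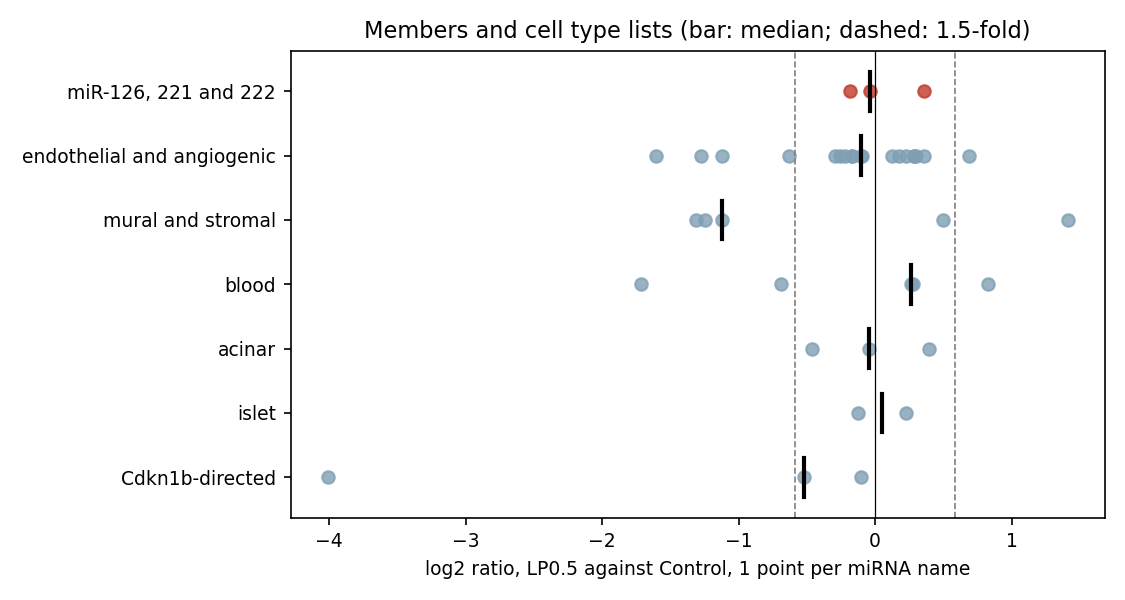
Each point is the log2 ratio, LP0.5 against Control, of 1 miRNA name, by list, with a bar at each list's median and dashed lines at 1.5-fold. The 3 members lie inside the dashed lines (-0.18 to 0.36), as do the acinar and islet miRNAs, while the mural and stromal list has its median at -1.12, the mean of a discordant pair of miR-143 assays (0.15 with A-set assays alone).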

How the data were processed

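Total RNA of 6 LP0.5 and 6 Control islet samples was measured by TaqMan RT-PCR, per the labels' protocols; the submitters' processing notes name limma without a role. For each of 846 spots the authors deposited 1 linear ratio (fold value), low-protein against control per its header, with 190 spots empty. A second table gave spot names; its 12 columns of per-sample values match no sample label and were not used, so the planned limma test could not be run and ratios are described without a test. How samples were averaged and which detection limit applied is not given in the sources used here.

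Deposited ratios were put on a log2 scale, on which the spots of 1 name were averaged for lists and counts of names. Names were compared without species prefix, and an older name was taken for 4 list entries. Sequences and gene order come from RefSeq tables of GRCm38.p6, matched by miRNA name, with 186 of 267 A-set hairpin names found. The rule for named miRNAs gave every member assay, the other strand and 3 nearest assays each. Per list it gave those at least 1.5-fold from 1 plus the nearest to 1. MiR-210, miR-132, miR-7b and miR-1928 were named after their values were seen. The members and lists were chosen with earlier results of these data known. Alternatives were other references, fold limits, assay sets and shared list members. The counting steps were tested on simulated data. Python 3.11.15, numpy 2.4.6, pandas 2.3.3 and matplotlib 3.10.9 were used.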

Additional observations from a re-analysis of the deposited data

Results flagged for a closer look

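The plant miRNA ath-miR159a, a negative control that mice lack, had a ratio of 1.96 in block B1, which holds miR-221, in the authors' deposited table. Whether a ratio of this assay stands for a signal was not tested, as cycle values were not analysed and no detection limit is given. Of its 8 spots in the A set 2 had a ratio, the other at 0.139 in the authors' deposited table, and its spots in the blocks of miR-126 and miR-222 had none. All 8 plant spots of the B set had a ratio, between 2.59 and 3.37 in the authors' deposited table. That set holds none of the 3 members, but the assays of miR-1928, miR-322 and miR-196a. It also holds 1 of the pair for each of miR-143, miR-10b, miR-214, miR-217 and miR-223.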

How the results depend on the processing

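No paired analysis was possible because the ratios carry no sample values; for the same reason leaving out replicates and changing the treatment of late cycles were not run. A member's ratio counted as moved when it shifted by more than the pooled SD of control spots, 0.1509 on the log2 scale. This happened under 14 of 24 combinations of member and reference. The snoRNA202 shift, 0.1512, passed that limit only just. No sign changed, but references made of the other 4 controls could only lower a ratio. Under those references the signs of miR-126 and miR-222 were fixed beforehand. The references by block and by single control were chosen after seeing the data. On the log2 scale, with the other 4 controls as reference, miR-126 was -0.23, miR-221 0.16 and miR-222 -0.38; with those controls of the same block, miR-126 was -0.25 and miR-222 -0.38. With snoRNA135 alone the values were -0.30, 0.10 and -0.44, with snoRNA202 -0.19, 0.21 and -0.33, and with Y1 -0.28, 0.12 and -0.43, in the order miR-126, miR-221, miR-222. References of the whole set shift all members equally by construction, and those by block do not. At a distance of 1.5-fold or more from 1 there were 105 miRNA spots above and 95 below; these counts were 40 and 48 in the A set and 65 and 47 in the B set, fewer by construction, and 70 and 67 at 2-fold. With the other 4 controls as reference they were 91 and 130, so the share above 1 turned from the majority to the minority. That reference moved the list medians to -0.30 (endothelial and angiogenic), -1.28 (mural and stromal), 0.064 (blood), -0.24 (acinar), -0.14 (islet, where it turned from 0.05) and -0.72 (Cdkn1b list); the last was -2.27 without miR-24, which it shares with the endothelial list. With assays of the A set alone, a choice made after seeing the data, the mural and stromal median turned to 0.15, against -1.12 with both assays of miR-143, and the Cdkn1b list was at -0.31. The level behind each ratio was not analysed here, so a limit from detection cannot be given.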
